A study of Zea mays with 6 samples.

Results

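The genes described are 6 of the maize benzoxazinoid biosynthesis genes, Bx1, Bx2, Bx3, Bx4, Bx5 and Bx8. They were taken by a list of gene identifiers. Bx1 (GRMZM2G085381) is not analysed here. The other 5 were among 43006 genes with a row in the table and had 6 of the 48312 transcripts: Bx2 (GRMZM2G085661, transcript _T01), Bx3 (GRMZM2G167549, transcript _T05), Bx4 (GRMZM2G172491, transcript _T01), Bx5 (GRMZM2G063756, transcript _T01) and Bx8 (GRMZM2G085054, transcripts _T01 and _T02). Of these, 4 transcripts, 1 each of Bx3, Bx4, Bx5 and Bx8, carried enough reads to be compared. Bx2 had 1 read in all libraries together and the _T01 transcript of Bx8 had 1 to 7 reads per library.

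RNA-Seq was performed on root tips of the maize inbred line Chang 7-2, in 6 libraries with 1 library per condition. PR-salt, CR-salt and SR-salt were primary, crown and seminal roots kept for 24 h in Hoagland's nutrient solution with 100 mM NaCl, and PR, CR and SR were the same root types in that solution with 0 mM NaCl. Seedlings were 3 days after germination for PR, 15 days for CR and 7 days for SR, so that root type and plant age cannot be told apart. Each library pooled the apical 1 cm of 10 to 15 roots, and because no condition had a second library, all ratios compare libraries and their intervals cover counting error only. Replicate collections (3 per root type) are stated in the labels, but no column holds them singly.

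Benzoxazinoids are the main defence metabolites of young maize, where they act against insects, fungi and competing plants and also bind iron in the rhizosphere. BX1 releases indole from indole-3-glycerol phosphate, the branch point from tryptophan synthesis. The cytochrome P450 monooxygenases BX2, BX3, BX4 and BX5 then add oxygen to indole in 4 consecutive steps, which gives DIBOA. BX8 and BX9 are UDP-glucosyltransferases that store DIBOA as its glucoside, BX6 and BX7 convert the glucoside to that of DIMBOA, and the beta-glucosidase Glu1 frees the toxic aglucone when cells break. In root tips, the compounds reach the soil by exudation, and seedlings hold more of them than older plants.

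Bx1 to Bx5 and Bx8 are a textbook case of a plant metabolic gene cluster. In the RefSeq annotation of the Zm-B73-REFERENCE-NAM-5.0 assembly all 6 genes lie on chromosome 4, in the order Bx3, Bx4, Bx5, Bx8, Bx1 and Bx2. Only 3 other annotated genes lie within that block, with none between Bx5 and Bx8 or between Bx1 and Bx2. No transcript could be matched to these 3 neighbours (0 of 3), so that the cluster could not be compared with the genes inside it. The deposited KEGG annotation gave Bx3, Bx4 and Bx5 the same first entry, 3-hydroxyindolin-2-one monooxygenase, which is the step of BX4 (CYP71C1), and it gave Bx8 its own glucosyltransferase entry. The reference names Bx3 cyp71c2 and Bx5 CYP71C3.

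The qRT-PCR assays of the study included Bx5. The primer pair is shown because it is the study's own assay for the gene with the most reads of the cluster. The primers hold 20 bases with 65% GC and 22 bases with 50% GC, written 5′ to 3′ with no part set in capitals.
Bx5 forward primer: tccaccgccgactgccagat
Bx5 reverse primer: gaaatggtacatgaggttggcg

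The 6 libraries were of similar depth, with 0.978 to 1.04 times the median of 2549512 reads counted on transcripts. The root markers rth3, rth1 and rum1 were present in all libraries. The root hair gene rth3 had 55 to 107 reads, rth1 had 504 to 585 reads and rum1 had 59 to 107 reads. The marker rtcs had 0 to 3 reads. The marker NRT2:1 had 1 read in PR-salt against 77 in PR, 228 in CR-salt against 100 in CR, and 259 in SR-salt against 50 in SR. A list of 22 leaf transcripts (Rubisco small subunit and light harvesting proteins) held 7 to 15 transcripts with a read. Its summed level, in reads per 1000000 counted reads (RPM), was 93.5 RPM in PR-salt and 79.0 in PR, 60.8 in CR-salt and 29.5 in CR, and 71.6 in SR-salt and 76.6 in SR. Over all libraries, the light harvesting transcripts AC207722.2_FGT009 and GRMZM2G402936_T01 held 50.3% and 34.6% of the leaf reads, so the sum mostly describes them. The median leaf transcript was at 0 RPKM in 4 libraries and at most at 0.489 RPKM. CR-salt thus exceeded CR in leaf reads as well as in Bx reads, and the part of this in the results below was not tested. Throughout, fewer cells of a type in a root tip and less RNA per cell cannot be told apart.

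Bx5 had the most reads of the 5 genes (1106 over all libraries), and its level spread most widely over the libraries. BX5 catalyses the last of the P450 steps. Its level (RPKM, the RPM divided by the transcript's length in kilobases) was 13.3 in PR-salt against 19.7 in PR, 112 in CR-salt against 37.4 in CR, and 57.6 in SR-salt against 29.7 in SR. These values rest on 57 and 81 reads in PR-salt and PR, 457 and 157 reads in CR-salt and CR, and 235 and 119 reads in SR-salt and SR. CR-salt stood above all other libraries, SR-salt came next, and PR-salt was lowest. Bx5 was above 95.2% of all transcripts with a read in CR-salt and above 66.0% of them in PR-salt, and the ratio between these libraries was 8.43-fold.

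Bx4, the P450 of the preceding step, which forms HBOA, had 481 reads and a similar pattern at a lower level. Its RPKM was 7.31 in PR-salt against 16.0 in PR, 39.2 in CR-salt against 15.6 in CR, and 27.7 in SR-salt against 12.6 in SR. The 3 untreated libraries thus lay close together, between 50 and 65 reads. CR-salt (158 reads) and SR-salt (112 reads) lay above them, and PR-salt (31 reads) lay below them. The highest level, in CR-salt, was 5.36-fold the lowest, in PR-salt.

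Bx3, which follows BX2 in the pathway and forms 3-hydroxyindolin-2-one, was lower again, with 170 reads. Its RPKM was 3.96 in PR-salt against 6.31 in PR, 13.7 in CR-salt against 3.56 in CR, and 8.30 in SR-salt against 5.48 in SR. The reads behind them were 17 in PR-salt against 26 in PR, 56 in CR-salt against 15 in CR, and 34 in SR-salt against 22 in SR. Only CR-salt stood apart from its neighbour in the order of levels, by an unadjusted 95% interval. The ratio of CR-salt to CR, the lowest library, was 3.85-fold.

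Bx8 had 146 reads over both transcripts, and 1 transcript, _T02, carried most of them. Bx8_T02 was at 5.99 RPKM in PR-salt against 3.97 in PR, 7.72 in CR-salt against 4.71 in CR, and 6.84 in SR-salt against 6.69 in SR. The intervals of all 6 libraries overlap. Summed over both transcripts, Bx8 had 30 reads in its highest library, CR-salt, against 18 reads in its lowest, CR, and the 95% interval of this log2 ratio was -0.11 to 1.71.

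Bx2, which starts the P450 series by converting indole to indolin-2-one, had no read in 5 of the libraries. The single read was in SR. A count of 0 allows up to 3 reads, which in the libraries without a read is a Bx2 level of 0.691 to 0.727 RPKM, under the levels of Bx3, Bx4 and Bx5 in every library. Whether Bx2 responded to salt could therefore not be measured.

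**Figure D1:**
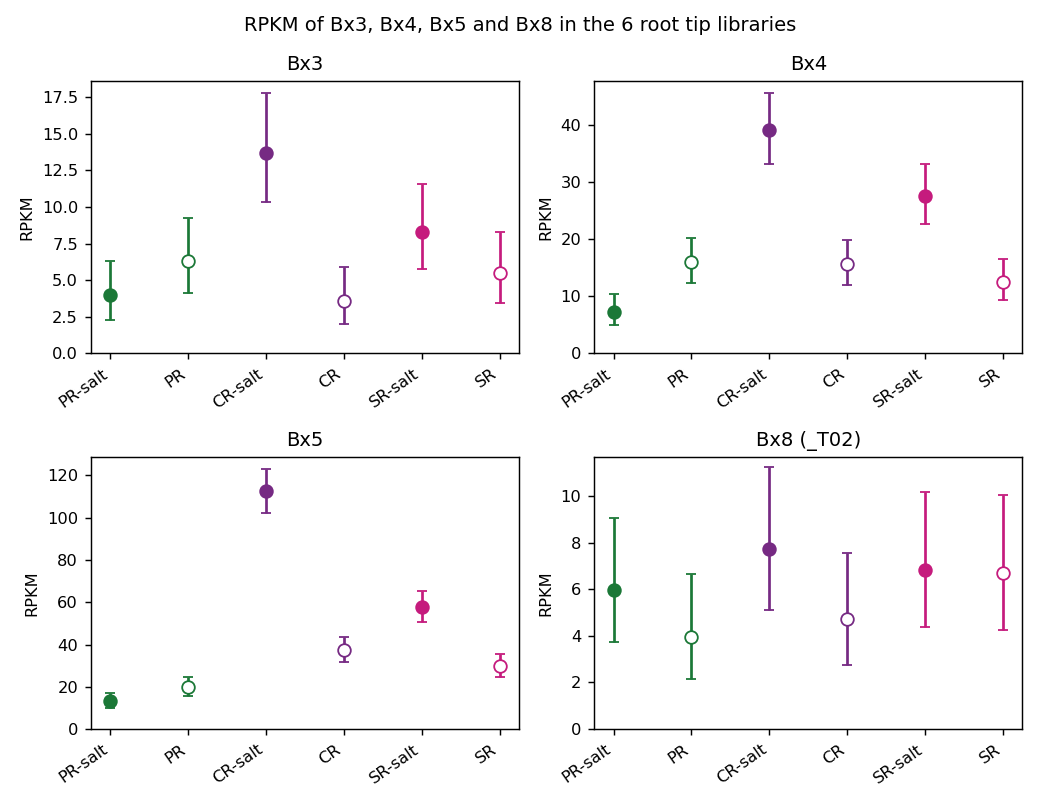
RPKM of Bx3, Bx4, Bx5 and Bx8 (_T02 transcript) in the 6 root tip libraries, with filled points for salt-treated and open points for untreated roots and bars for exact 95% Poisson intervals, which cover counting error only. CR-salt is highest for Bx5 (112 RPKM), Bx4 (39.2 RPKM) and Bx3 (13.7 RPKM), while the bars of Bx8 overlap in all libraries.

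The order of levels could be resolved in part, by 95% intervals that are not adjusted for the number of pairs. The neighbours were set by sorting these same levels. For Bx5 the order was CR-salt, SR-salt, CR, SR, PR and PR-salt. The interval of each pair of neighbours excluded 0 except that of CR and SR, whose log2 ratio had a 95% interval of -0.02 to 0.69. For SR against PR and PR against PR-salt, Bx5 did not pass the adjusted test of the comparisons below. For Bx4 the order was CR-salt, SR-salt, PR, CR, SR and PR-salt, in which the 3 untreated libraries did not differ from one another beyond counting error. For Bx3 only the interval of CR-salt and SR-salt excluded 0 (log2 ratio 0.72, 95% interval 0.08 to 1.38). Neither Bx4 nor Bx3 passed the adjusted test for CR-salt against SR-salt. No pair of neighbours differed for Bx8.

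The first comparison asked whether 24 h of salt altered the genes within each root type. In PR, none of the 5 transcripts with a read in the pair was called (0 of 5), against 0.519% of all 40841 transcripts tested. A call needed a false discovery rate (FDR) of at most 0.001 in the Audic-Claverie test, which compares the reads of 2 libraries, and an RPKM ratio of at least 2-fold. Bx4 had a log2 ratio of PR-salt over PR of -1.13 (95% interval -1.79 to -0.49, Audic-Claverie FDR 0.0130). The ratio passed 2-fold and the FDR did not reach its threshold, although it did at an FDR of 0.05. Bx5 stood at -0.57 (-1.08 to -0.06, FDR 0.354), Bx3 at -0.67 (-1.65 to 0.27) and Bx8_T02 at 0.59 (-0.44 to 1.67), the last 2 with intervals that include 0.

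In CR, 3 of the 5 transcripts with a read in the pair rose with salt and none fell, against 0.135% of all transcripts called higher in CR-salt and 0.234% called lower. These were the 3 P450 genes with reads, Bx3, Bx4 and Bx5. Bx5 was 3.0-fold higher in CR-salt (log2 ratio 1.59, 95% interval 1.32 to 1.86, Audic-Claverie FDR 3.59e-34). Bx4 was 2.51-fold higher (1.33, 0.90 to 1.77, FDR 1.33e-08) and Bx3 was 3.85-fold higher (1.95, 1.10 to 2.87, FDR 4.06e-05). The intervals of the 3 P450 genes overlap, and whether they rose by different amounts was not tested. Bx8_T02 was not called, with a log2 ratio of 0.71 and an interval of -0.22 to 1.68 that spans both no change and a rise as large as that of Bx4. The calls cover counting error only. With an assumed coefficient of variation of 0.1 between libraries, only Bx5 was still called, and with 0.2 none was (0 of 5, with 4 calls among all transcripts). The edgeR fit of all 6 libraries estimated a common value of 0.102 over all transcripts tested. No condition had a second library, so this value includes differences between root types in the salt response.

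In SR, 1 of the 6 transcripts rose and none fell, against 0.0814% of all transcripts called higher in SR-salt and 0.311% called lower. This was Bx4, at 2.2-fold (log2 ratio 1.14, 95% interval 0.64 to 1.65, Audic-Claverie FDR 1.68e-04). Bx5 was at 1.94-fold, just under the ratio that a call required, with an FDR of 3.03e-07 and an interval of 0.63 to 1.28. Bx3 (0.60, -0.22 to 1.44) and Bx8_T02 (0.03, -0.85 to 0.92) had intervals that include 0. The call of Bx4 in SR was lost with an assumed coefficient of variation of 0.1.

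**Figure D2:**
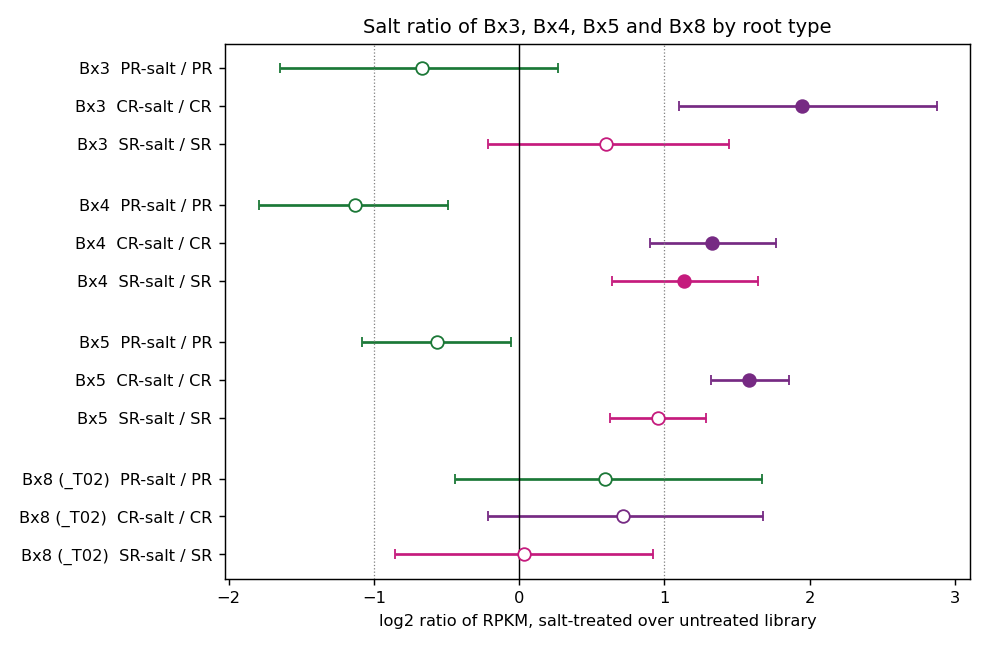
Log2 ratio of RPKM, salt-treated over untreated library, for Bx3, Bx4, Bx5 and Bx8 (_T02 transcript) in PR, CR and SR, with exact 95% intervals for counting error, filled points for called ratios and dotted lines at 2-fold. Bx3, Bx4 and Bx5 lie to the left of 0 in PR and to the right of 0 in CR and SR, and the 4 filled points are Bx3, Bx4 and Bx5 in CR and Bx4 in SR.

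The 4 transcripts that reached 20 reads over a pair had a median log2 ratio of -0.62 in PR, of 1.46 in CR and of 0.78 in SR. Over all transcripts with as many reads the median was 0.03 for PR, 0.02 for CR and 0.03 for SR. The ratio was above 0 for 1 of the 4 transcripts in PR (Bx8_T02), against 53.7% of all transcripts. It was above 0 for 4 of 4 in CR, against 52.3% of all transcripts, and for 4 of 4 in SR, against 52.4%. At least 2-fold higher were 0 of 4 in PR, against 1.84% of all transcripts, 3 of 4 in CR, against 2.62%, and 1 of 4 in SR, against 2.24%. At least 2-fold lower was 1 of 4 in PR, Bx4, against 3.6% of all transcripts, and none was in CR or SR, against 2.79% and 3.13%.

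Together, the genes took 48.8 RPM in PR-salt against 75.5 in PR, 277 in CR-salt against 97.6 in CR, and 160 in SR-salt against 87.5 in SR. Bx5 made up 43.8% of these reads in PR-salt (57 of 130 reads, exact binomial 95% interval 35.2 to 52.8%) and 42.0% in PR (34.9 to 49.3%). Its share was 65.2% in CR-salt (61.5 to 68.7%) and 61.6% in CR (55.3 to 67.6%), and 57.7% in SR-salt (52.8 to 62.6%) and 54.6% in SR (47.7 to 61.3%). The intervals of the salt-treated and the untreated library overlapped in each root type, whereas those of CR-salt and CR lay above those of PR-salt and PR. The ratio of Bx5 to Bx4, per length, was 1.82 in PR-salt and 1.24 in PR, against 2.87 in CR-salt, 2.40 in CR, 2.08 in SR-salt and 2.36 in SR.

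An effect called in one root type and not in another does not show that the root types differ, so the difference of the salt ratios was tested itself, on the reads of 4 libraries at a time. This test covers counting error only, and it was not run with an assumed coefficient of variation between libraries. Between PR and CR, 2 of the 4 transcripts with enough reads differed, against 0.662% of all 22215 transcripts tested. After the addition of 1 read to each library, the log2 ratio of Bx5 was lower by 2.14 in PR than in CR (exact conditional test, FDR 9.75e-12) and that of Bx4 was lower by 2.42 (FDR 8.20e-09). Bx3 had the largest value, -2.52, from fewer reads, and its FDR of 0.00174 missed the threshold of 0.001. Bx8_T02 had a difference of -0.12 (FDR 1).

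Between PR and SR, the same test called Bx4 (difference -2.22, FDR 1.31e-06) and Bx5 (difference -1.51, FDR 4.30e-05), so 2 of 4 transcripts, against 0.708% of all transcripts. Bx3 stood at -1.22 (FDR 0.498) and Bx8_T02 at 0.53. Between CR and SR, 0 of 4 transcripts were called, against 0.186% of all transcripts. There, Bx5 had a difference of 0.63 (FDR 0.147), Bx3 of 1.30 (FDR 0.488), Bx4 of 0.19 and Bx8_T02 of 0.65. The PR pair enters the PR against CR and PR against SR comparisons alike, so these are not independent of each other.

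The root types were next compared at the same treatment. In untreated roots, no transcript of the genes was called in any of the 3 comparisons. The counts were 0 of 5 for PR against CR, against 2.06% of all transcripts, 0 of 6 for PR against SR, against 1.56%, and 0 of 6 for CR against SR, against 0.523%. Bx5 came nearest to a call, with a log2 ratio of PR over CR of -0.92 (95% interval -1.33 to -0.53, Audic-Claverie FDR 6.36e-05), under the ratio threshold. For Bx5, the ratio of PR over SR was -0.59 (-1.02 to -0.17). For Bx4, no log2 ratio between untreated root types differed from 0 beyond counting error. It was 0.03 for PR over CR (-0.49 to 0.55), 0.34 for PR over SR (-0.21 to 0.90) and 0.31 for CR over SR (-0.24 to 0.87).

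After salt, Bx4 and Bx5 were lower in PR than in both other root types. In PR-salt, 3 of the 5 transcripts with a read were lower than in CR-salt, against 0.722% of all transcripts called lower. Bx5 had a log2 ratio of PR-salt over CR-salt of -3.08 (95% interval -3.50 to -2.68, Audic-Claverie FDR 1.92e-80), Bx4 of -2.42 (-3.03 to -1.86, FDR 4.52e-21) and Bx3 of -1.79 (-2.67 to -0.99, FDR 6.24e-05). With an assumed coefficient of variation of 0.2 the calls of Bx5 and Bx4 remained and that of Bx3 was lost (FDR 0.164).

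In PR-salt against SR-salt, 2 of 5 transcripts were lower, Bx5 (-2.11, -2.56 to -1.69, Audic-Claverie FDR 1.98e-26) and Bx4 (-1.92, -2.54 to -1.34, FDR 6.45e-11), against 0.773% of all transcripts. Both calls were lost with an assumed coefficient of variation of 0.2, with FDRs of 0.00306 for Bx5 and 0.0325 for Bx4. Bx3 was not called (-1.07, -2.00 to -0.19, FDR 0.165). Between CR-salt and SR-salt, 0 of 5 transcripts were called, against 0.436% of all transcripts. Bx5 was there at 0.96 (0.73 to 1.20) with an FDR of 4.96e-15, again just under the ratio threshold. Bx8 was not called in any comparison of root types.

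With the 3 root types taken as replicates of the salt treatment, no transcript of the genes was called for an average salt effect (0 of 4 tested), against 0.613% of all 18444 transcripts. In this fit Bx5 had a log2 fold change of 0.83 ± 0.28 (SE, edgeR quasi-likelihood test, FDR 0.239), Bx3 of 0.67 ± 0.38 (FDR 0.525), Bx4 of 0.59 ± 0.35 (FDR 0.537) and Bx8_T02 of 0.39 ± 0.27 (FDR 0.603). At an unadjusted p under 0.05 the edgeR fit had 1 transcript, Bx5, and DESeq2 had 0 called and 0 at an unadjusted p under 0.05, with no adjusted p for 2 of the 4, which could therefore not be called. Without the PR pair the count was 3 of 4, against 4.32% of all transcripts, with 1.28 for Bx5 (FDR 1.44e-08), 1.21 for Bx4 (FDR 1.95e-05) and 1.25 for Bx3 (FDR 0.0110) over CR and SR only. That fit rests on 4 libraries, and the pair left out is the one in which Bx3, Bx4 and Bx5 had ratios below 0. Without the CR pair 0 of 4 were called, against 0.341% of all transcripts, and without the SR pair 0 of 4, against 0.274%.

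With treatment as the covariate, Bx5 was lower in PR than in CR (log2 fold change -2.03 ± 0.35, SE, edgeR FDR 0.00529), which made 1 of 4 transcripts, against 2.91% of all transcripts called lower in PR. DESeq2 gave -1.95 for Bx5 with an adjusted p of 0.185. Bx4 was at -1.14 ± 0.43 (FDR 0.185) in the same contrast. For PR over SR 0 of 4 were called in edgeR (1 at an unadjusted p under 0.05) against 4.68% of all transcripts, and Bx5 was at -1.31 ± 0.37 (FDR 0.0771). For CR over SR 0 of 4 were called (1 at an unadjusted p under 0.05) against 1.1% of all transcripts, with Bx5 at 0.73 ± 0.31 (FDR 0.397). DESeq2 called 0 in both contrasts and had 0 at an unadjusted p under 0.05, with no adjusted p for 2 of the 4 in CR over SR.

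The reads of Bx3 and Bx8 fell on short stretches of their transcripts. Bx5 (1605 bases) was covered over 68.2 to 86.1% of its length, and transcripts with 0.8 to 1.25 times its length and reads had median coverages of 61.1 to 96.0%. Bx4 (1593 bases) was covered over 40.9 to 46.5%, below the medians of 47.0 to 88.2% for like transcripts. Bx3 (1611 bases) was covered over 13.0 to 14.8%, against medians of 27.2 to 62.9%, and Bx8_T02 (1380 bases) over 6.01 to 7.10%, against medians of 27.8 to 47.0%. The coverage of Bx3 was 14.2% with 56 reads in CR-salt and 13.0% with 15 reads in CR. Reads were from Chang 7-2 and were aligned to the genome of another line, B73, with only uniquely aligned reads counted, and the 3 P450 genes belong to one subfamily of similar sequences. The levels of Bx3, Bx4 and Bx8 relative to Bx5 are therefore uncertain. Their salt ratios and profiles over the libraries rest on the same stretches. Whether reads of one P450 gene were counted on another was not tested. What set the covered stretches was not tested.

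**Figure D3:**
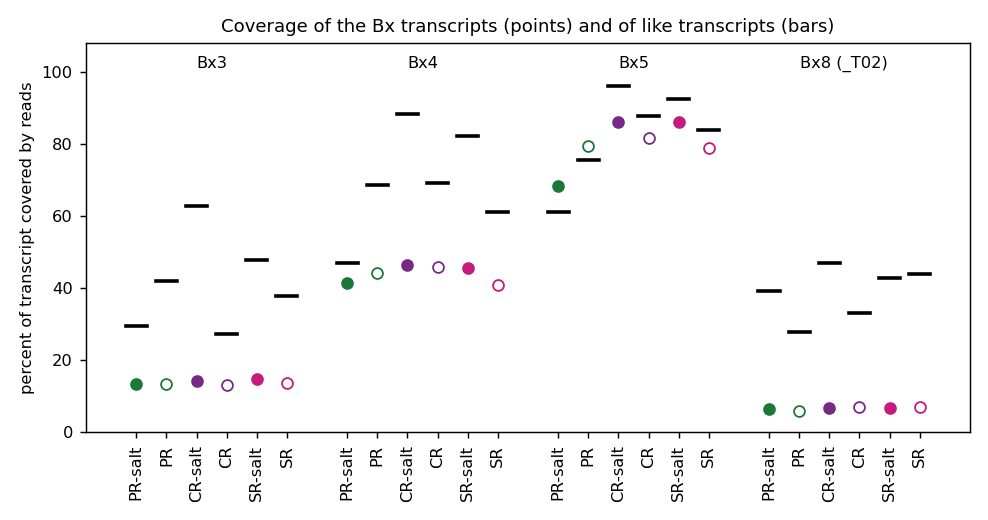
Percent of the transcript covered by reads for Bx3, Bx4, Bx5 and Bx8 (_T02 transcript) in the 6 libraries, with filled points for salt-treated and open points for untreated roots and black bars for the median of transcripts of like length and read number. Bx5 lies near the bars (68.2 to 86.1%), while Bx3 (13.0 to 14.8%) and Bx8 (6.01 to 7.10%) lie below them in all libraries.

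Across the 6 libraries, Bx4 and Bx5 had the most similar profiles, with a Pearson r of 0.94 of log2(RPKM + 1), followed by Bx3 and Bx4 (0.87) and Bx3 and Bx5 (0.79). Bx8 had an r of 0.44 with Bx4 and of 0.50 with Bx5. These values describe 6 libraries of 3 root types and carry no p. Set against the mean of the other Bx genes, Bx4 ranked 79th, Bx5 119th and Bx3 224th in likeness among 18440 transcripts compared, whereas Bx8 ranked 2157th and Bx2, with its single read, 11408th.

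The 5 transcripts outside the cluster whose profile was most like the mean of the Bx genes had an r of 0.98 to 0.99. These 5 had the highest r among 18440 transcripts over 6 libraries, so a high r follows from the choice. They were GRMZM2G092595_T01 (1-phosphatidylinositol-3-phosphate 5-kinase entry), GRMZM2G462325_T03 (a glycerol-3-phosphate transporter entry), GRMZM2G156019_T01 (an ARR-A two-component response regulator entry), GRMZM2G139193_T01 (no entry) and GRMZM2G099238_T01 (integrator complex subunit 11 entry). Their order of libraries was similar but their range was smaller than that of Bx5. GRMZM2G092595_T01 ranged from 26.7 RPKM in PR-salt (244 reads) to 33.4 RPKM in CR-salt (291 reads). GRMZM2G156019_T01 had 33.3 RPKM in PR-salt against 39.9 in PR, 59.4 in CR-salt against 40.1 in CR, and 52.9 in SR-salt against 39.9 in SR.

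Of 10 further genes of the pathway that were listed, 7 were named by the deposited annotation or the reference and 6 had values. None of them was called higher with salt (0 of 6 listed in each root type), against 0.0318% (PR), 0.135% (CR) and 0.0814% (SR) of all transcripts, and the 4 with at least 20 reads had a median log2 ratio of -0.54 (PR), -0.62 (CR) and -0.14 (SR). Bx7, Bx9 and Glu1 had a higher RPKM than Bx5 in every library. The reads of Glu1 covered 22.63 to 22.75% of its 1701 bases, so its level is uncertain. Bx7, the methyltransferase that completes the DIMBOA glucoside, had 994 RPKM in PR-salt against 1109 in PR, 1036 in CR-salt against 740 in CR, and 1196 in SR-salt against 852 in SR. It was not called, since its ratios were under 2-fold, with log2 ratios of -0.16 in PR (95% interval -0.24 to -0.08), 0.48 in CR (0.39 to 0.58, Audic-Claverie FDR 6.41e-23) and 0.49 in SR (0.40 to 0.58, FDR 1.70e-26). Their signs by root type were those of Bx5, at a smaller size.

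Bx9, the second glucosyltransferase, had 359 RPKM in PR-salt against 574 in PR, 400 in CR-salt against 464 in CR, and 405 in SR-salt against 495 in SR. Its RPKM was thus above that of Bx8, the glucosyltransferase inside the cluster, in every library. The reads of Bx9 covered 98.7 to 98.85% of its transcript and those of Bx8_T02 covered 6.01 to 7.10%, so these levels are not directly comparable. The log2 ratios of Bx9 were -0.68 in PR, -0.22 in CR and -0.29 in SR, none of them called. Bx6 is not analysed here, and Igl1, which makes free indole for release as a volatile, had 1 read in all libraries.

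Bx14, a methyltransferase that converts DIMBOA glucoside to HDMBOA glucoside, fell with salt in PR and CR. It had 36.1 RPKM in PR-salt against 173 in PR (log2 ratio -2.26, 95% interval -2.57 to -1.95, Audic-Claverie FDR 1.51e-59). In CR-salt it had 10 reads against 46 in CR (-2.16, -3.31 to -1.15, FDR 1.46e-04), and in SR-salt and SR it had 44 reads each. Glu1 was called lower in CR (log2 ratio -1.03, -1.14 to -0.91, FDR 1.26e-72), with 215 RPKM in CR-salt against 438 in CR, and was at -0.41 in PR and -0.24 in SR. The list thus had 1 of 6 lower in PR, against 0.487% of all transcripts, 2 of 6 in CR, against 0.234%, and 0 of 6 in SR, against 0.311%. For the average salt effect in edgeR none of these was called, with FDRs of 0.0580 for Bx14, 0.0679 for Glu1, 0.0792 for Bx9 and 0.452 for Bx7.

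**Figure D4:**
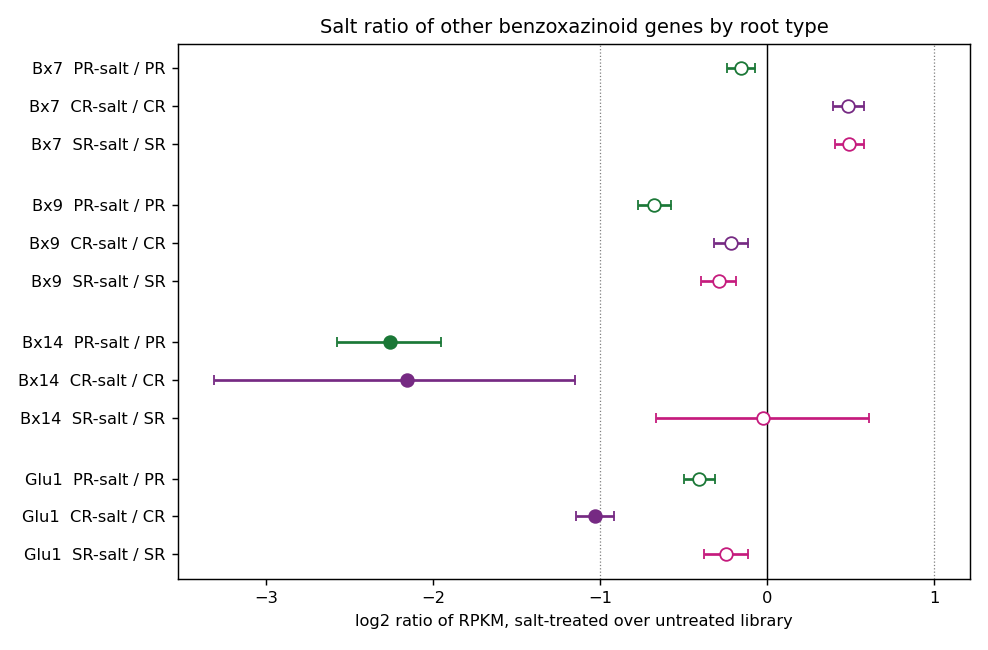
Log2 ratio of RPKM, salt-treated over untreated library, for the 4 other benzoxazinoid genes with at least 20 reads (Bx7, Bx9, Bx14 and Glu1) in PR, CR and SR, with exact 95% intervals for counting error, filled points for called ratios and dotted lines at 2-fold. Bx14 in PR (-2.26) and in CR (-2.16) and Glu1 in CR (-1.03) were called lower, and no point lies beyond 2-fold higher.

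Upstream of the cluster, 26 transcripts carried an entry of the path from chorismate to indole-3-glycerol phosphate or of tryptophan synthase, which supply the BX1 substrate or compete for it. None was called in any root type (0 of 26), where calls among all transcripts were as rare as 0.519% in PR, 0.369% in CR and 0.392% in SR, so that the count is near the background. The median log2 ratio of the 12 to 13 with at least 20 reads was 0.02 for PR, 0.09 for CR and 0.30 for SR, compared with 1.46 for the Bx transcripts in CR and 0.78 in SR. Another 10 transcripts shared the P450 entry of Bx3, Bx4 and Bx5. None of these relatives was called for salt (0 of 10 listed, some without a read in the CR or the SR pair, again near the background). Those with at least 20 reads lay between -0.70 and 0.13 in PR, between -0.26 and 0.41 in CR and between -0.44 and 0.48 in SR. In CR, Bx3, Bx4 and Bx5 (1.33 to 1.95) thus lay above every one of the 4 relatives with enough reads.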

How the data were processed

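Total RNA of root tips was sequenced on the Illumina platform. The authors removed adaptor and low quality reads, aligned the rest with SOAP to B73 RefGen_V2 and used BLAST to assign them to known genes. The table that the authors deposited gives, per transcript and library, the count of uniquely aligned reads, which is not normalized, the RPKM and the percent of the transcript covered. Recomputing from counts, lengths and totals gave back the deposited RPKM to within 1.74e-06. Every sample column could be matched to a label (0 unmatched), and the table holds none of the authors' own comparisons.

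The Bx genes, the lists and the tests were chosen with earlier results of these data known. All transcripts of the listed Bx genes were named, further pathway genes only where the deposited annotation or RefSeq names them (14 of 16 identifiers matched), and outside the cluster the 5 transcripts most alike. Precursor genes were to be named only if called. Library pairs were compared with the Audic-Claverie test of the study's methods (Benjamini-Hochberg FDR at most 0.001, absolute log2 ratio at least 1, an RPKM of 0 set to 0.01) among all transcripts that had 1 read or more in the pair. Differences of salt ratios were tested on the conditional (Fisher's noncentral hypergeometric) distribution for at least 20 reads. Average effects were fitted in edgeR 4.0.16 by quasi-likelihood, root type and salt being the terms (TMM, at least 10 reads in at least 3 libraries, FDR 0.05, 2 residual degrees of freedom), with DESeq2 1.42.0 as an alternative. In counts simulated with no variation between libraries beyond counting error and 200 transcripts changed 4-fold, 191 were recovered by the Audic-Claverie test and 180 by the test of differences. With a simulated coefficient of variation of 0.15, edgeR recovered 200 with 3 other calls. The changed transcripts were drawn only from those above a minimum of expected reads, which Bx3 and Bx8 did not reach on average. In the edgeR simulation the change was the same in all root types, unlike the ratios of Bx4 and Bx5. Recovery of the Bx genes themselves was therefore not simulated. Scripts ran in R 4.3.3 and Python 3.11.15 (scipy 1.17.1, pandas 2.3.3, numpy 2.4.6, matplotlib 3.10.9). Intervals are 95% (Clopper-Pearson for ratios and shares, exact Poisson for levels). Reads carried no molecular identifiers, so intervals and the limit of 3 reads cover counting error only. Coordinates are not given because the files and the annotation use different builds.

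Alternatives were Fisher's exact test, an FDR of 0.05, TMM and DESeq2 scaling, a minimum of 20 reads, 1 added read, reads summed to genes, edgeR exact tests with an assumed coefficient of variation of 0.1 or 0.2, no filter, no covariate and leaving out each root type.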

Additional observations from a re-analysis of the deposited data

Results flagged for a closer look

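The log2 ratio of salt-treated over untreated roots differed between root types for Bx4 and Bx5, by the test of the difference itself. For Bx5 the ratio was lower by 2.14 in PR than in CR (difference -2.14) and by 1.51 in PR than in SR (difference -1.51). For Bx4 the difference was -2.42 against CR and -2.22 against SR. Each value rests on 4 libraries, 1 per condition, and the PR pair enters all of them, so that PR as a root type and the PR pair of libraries cannot be told apart. The test of the difference covers counting error only and was not run with an assumed coefficient of variation between libraries.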

How the results depend on the processing

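No called result reversed under any alternative that was run. For the counts of called Bx transcripts, 52 of 64 values under an alternative stayed on the same side of the thresholds and within range, and for the single Bx transcripts 236 of 256 did. In PR, an FDR of 0.05 gave 1 call, Bx4. With an assumed coefficient of variation of 0.1 the calls were 1 in CR and 0 in SR, and with 0.2 they were 0 in CR, 0 in SR and 0 for PR-salt against SR-salt. The average salt effect gave 1 call without a filter on low counts, Bx5, and 3 without the PR pair, with 0 without the CR or the SR pair. Over the alternatives of that effect, the log2 value ranged from 0.29 to 1.28 for Bx5, 0.12 to 1.21 for Bx4, -0.01 to 1.25 for Bx3 and 0.25 to 0.62 for Bx8_T02. Without the filter, 2 transcripts were called for PR over CR, 1 for PR over SR and 1 for CR over SR, while DESeq2 called 0 for PR over CR. The difference of Bx3 between PR and CR (-2.52) was called at an FDR of 0.05. The cause of these shifts was not tested. Root type was the block that paired salt-treated with untreated libraries in the edgeR fit, and without it 0 Bx transcripts and 0 of all transcripts were called for salt. Bx2 and the _T01 transcript of Bx8 had few reads, were not called in any comparison and entered the edgeR fit only without the filter. Whether depth or alignment set their low counts was not tested. The counts of Bx3 and Bx8_T02 leave wide intervals.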
